A study of Mus musculus with 56 samples.

Results

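Genes of the contractile apparatus and of actin binding were followed through mammary tumor cell lines that carry different β-catenin alleles. The 10 genes, of 20314 in the table of values, were Acta2, Actg2, Tagln, Cnn1, Cnn2, Tpm1, Tpm2, Tpm4, Myl9 and Flna. They were chosen by name and looked up by their Entrez identifiers, and the question was how each of them answered TGFβ in 7 genotypes.

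Smooth muscle and myofibroblasts contract by sliding myosin along actin filaments. Acta2 and Actg2 encode the smooth muscle α- and γ-actins, Tagln, Cnn1 and Cnn2 encode the filament-binding proteins transgelin and calponins, tropomyosins lie along the filament and gate myosin, Myl9 encodes a regulatory light chain of myosin, and Flna encodes filamin A, which crosslinks filaments beneath the membrane. In mammary tissue the contractile isoforms mark the myoepithelium around the ducts, and epithelial cells that pass into a mesenchymal state under TGFβ rebuild their actin cytoskeleton.

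The study asked what the binding of β-catenin to its partners contributes to mammary tumor progression and to the epithelial-mesenchymal transition. RNA was taken from lines grown out of mammary tumors of FVB/N mice in which the MMTV promoter drives the polyoma middle T antigen (PyMT). Lines of 7 genotypes at the β-catenin gene were compared: fl/fl, which served as wild type, D164A/fl, ΔC/fl and dm/fl, which carry a mutant beside a floxed allele, and D164A/-, ΔC/- and dm/-, in which the floxed allele was deleted. D164A is a point substitution in β-catenin that disrupts its binding to Bcl9 and Bcl9L. Cells received 2 ng/ml TGFβ for 4 days or 100 ng/ml Wnt3a for 3 days, and each of these experiments had untreated cells of its own. That made 28 conditions with 2 biological replicates each, 56 samples in all and 8 per genotype.

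The model has limits that bear on every comparison of genotypes. The deletion in the "/-" lines was made by infection with an adenovirus that carries Cre and GFP, followed by sorting of green cells. A control virus without Cre is described, but the labels do not say whether the floxed lines measured here had received it. Fibroblasts were removed from the tumor cell cultures by differential trypsinization. The labels do not say which line of a genotype a sample came from, so a genotype and a line cannot be told apart, and the p-values measure the spread between these samples only.

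Between 22.4 and 33.7 M reads per sample fell on genes, with a median of 26.8 M. Values are reads per M of an effective library size, hereafter units. A gene was taken as detected from 3 reads, which corresponded to 0.0920 to 0.146 units, a limit that covers counting error only. Tests were run with limma on log2(value + 1), a scale that understates changes of genes below about 1 unit. A gene counted as called when its Benjamini-Hochberg adjusted p was 0.05 or less and its log2 change was 1 or more in either direction. A gene entered the tests with at least 1 unit in at least 2 samples, which 13754 genes and 9 of the 10 members did.

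The filter was passed in unequal ways. Cnn2, Tpm1, Tpm4 and Flna, 4 members, reached 1 unit in all 56 samples, and Tpm2 did so in 50. Actg2 reached it in 8 samples, all ΔC/fl, Tagln in 7, of which 6 were ΔC/fl, Myl9 in 9, of which 8 were ΔC/fl, and Acta2 in 12, of which 6 were ΔC/fl, 4 dm/fl and 2 dm/-. Without the 8 ΔC/fl samples 6 members would have passed, so calls of Actg2, Tagln and Myl9 in ΔC/fl cells partly follow from how they entered the test. Cnn1 stayed below 1 unit in each of the 56 samples and was not tested. Per kilobase of exon, Flna had the highest median over the 28 condition means (329.9 units per kb). Tpm4 (204), Tpm1 (146), Cnn2 (55.5) and Tpm2 (11.3) followed. The remaining members had medians of 0.101 for Acta2 and Tagln, 0.0601 for Actg2, 0.0346 for Myl9 and 0.0163 for Cnn1.

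In 2 conditions of the Wnt3a experiment the replicates lay apart. The standard deviation of the replicate difference over 9513 genes was 1.64 log2 units in untreated dm/fl cells of that experiment and 1.36 in dm/- cells with Wnt3a, against at most 0.966 elsewhere. Calls that changed when these conditions were left out, an alternative chosen after seeing the data, are given beside the results.

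Ctnnb1, the targeted gene, had 531 to 3188 units over the 56 samples. In the TGFβ experiment it had 815 and 1045 units in untreated and 1316 and 1216 in treated fl/fl cells, and it was highest in ΔC/- cells with 2127 and 2161 untreated and 3188 and 2552 treated. The gene total includes exons outside the deleted stretch and reads of the mutant allele, so it does not check the deletion. Among known TGFβ targets, Smad7 rose in 6 genotypes and Pmepa1 in 2, and Skil was called in none of them.

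The labels name breast cancer cells. Of 5 luminal markers (Epcam, Cdh1, Krt8, Krt18, Krt19), 4 exceeded 1 unit in the TGFβ experiment of each genotype, with Krt19 above 1 unit only in fl/fl cells, and their sum lay between 1067 and 8122 units over the 56 samples. Of 8 fibroblast markers, Lum and Thy1 did not exceed 0.0800 and 0.116 units in any sample and Dcn not 3.49. The sum of the fibroblast list nevertheless differed between lines, from 5.58 units in an untreated fl/fl to 779 in an untreated ΔC/fl sample, and was carried mainly by Pdgfra and Pdgfrb. Whether fewer cells of a type or less RNA per cell underlies a lower level cannot be told apart in bulk RNA. Only uniquely mapped reads were counted, but actins, tropomyosins and filamins are close paralogs, and reads shared between them make their separate totals uncertain.

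**Figure D1:**
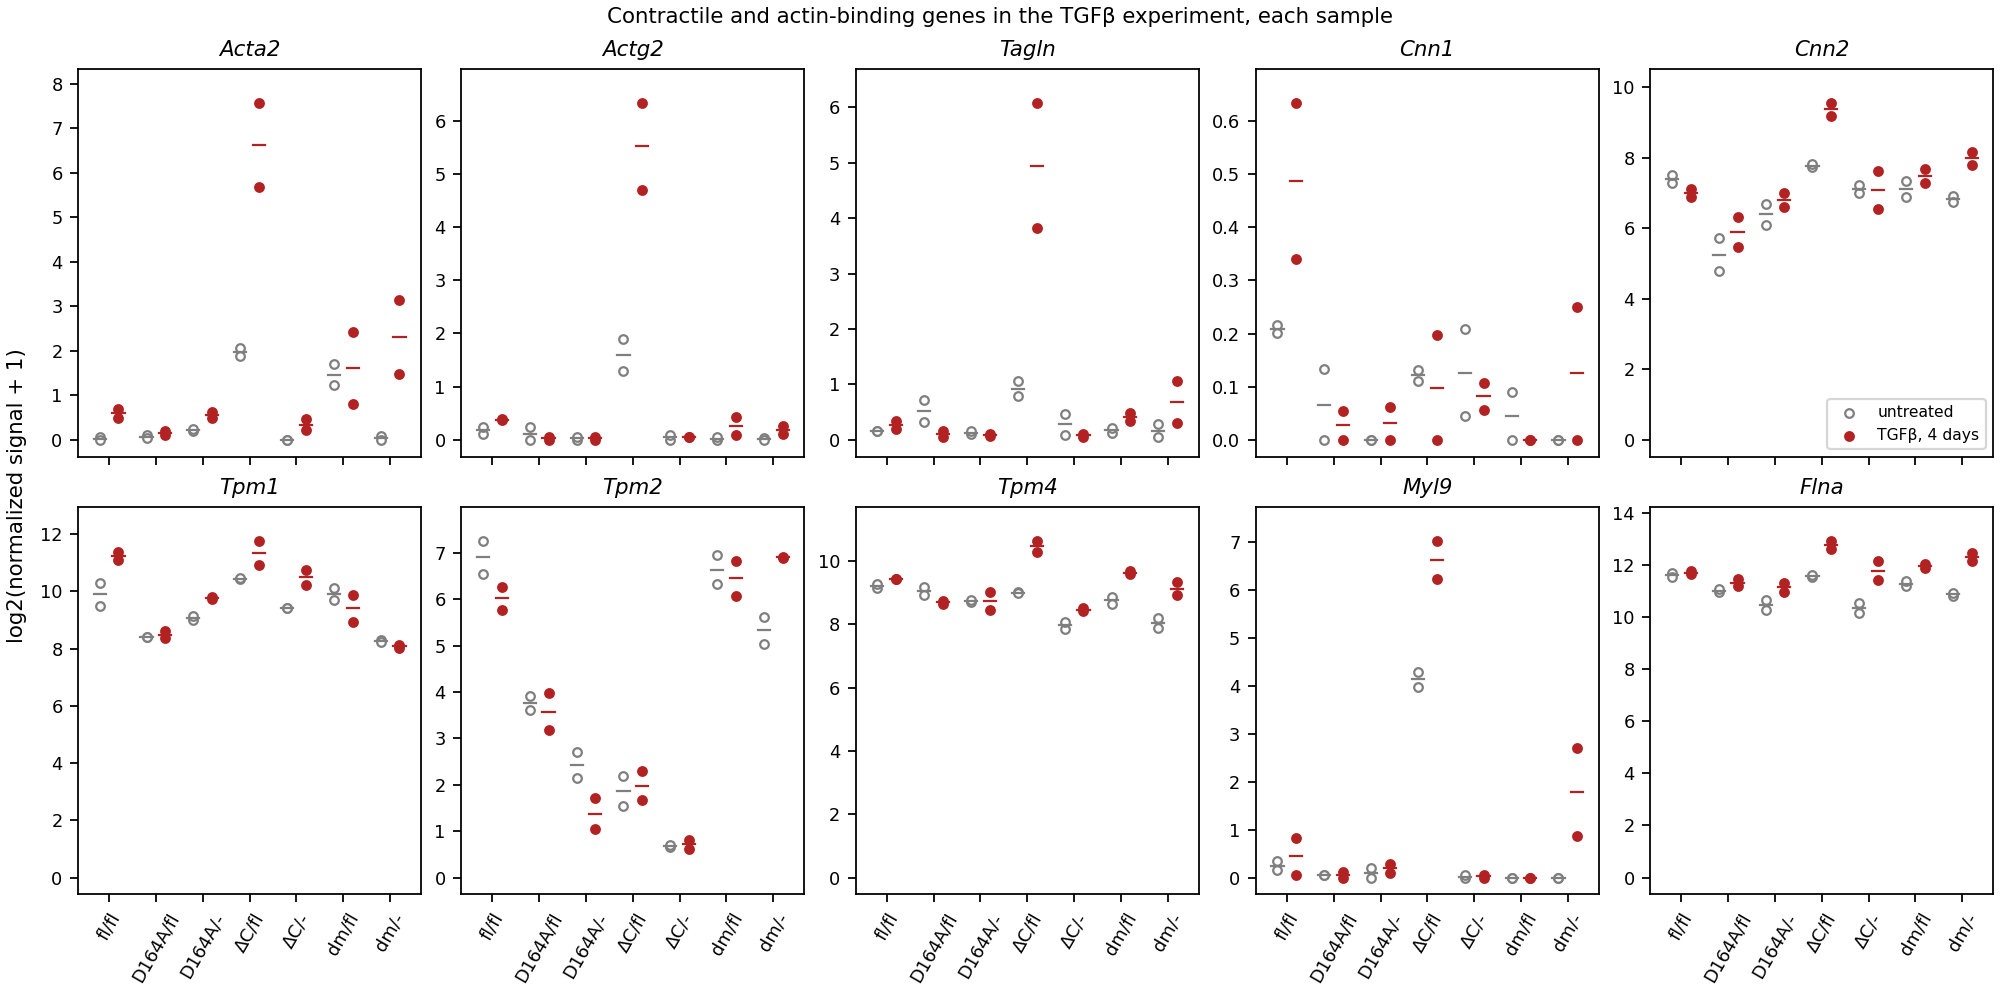
Values of the 10 members as log2(value + 1) in each sample of the TGFβ experiment, by genotype (open, untreated; filled, TGFβ; bars, means). Each panel has its own axis, and Cnn1 lies below 1 unit throughout.

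The plot of values by sample shows members of different kinds. Some were near the detection limit in most lines and high in ΔC/fl cells, and others were abundant everywhere. With TGFβ, limma called 6 of the 9 tested members higher in ΔC/fl cells, where 3.24% of 13754 genes were called up, 3 in dm/- (3.68%), 2 in ΔC/- (2.86%) and 1 in fl/fl cells (3.31%). It called 0 higher in D164A/fl (2.50%), D164A/- (2.70%) and dm/fl cells (3.45%). At an unadjusted p under 0.05 there were 0, 1 and 1 members in these 3 genotypes, and edgeR also called 0, with 1, 2 and 2 members at an unadjusted p under 0.05. No genotype had a member called lower by limma (0 of 9 each) or by edgeR, and the share of all genes called lower was 2.94% in fl/fl, 0.880% in D164A/fl, 1.36% in D164A/-, 4.49% in ΔC/fl, 3.69% in ΔC/-, 6.88% in dm/fl and 2.44% in dm/- cells. The members at an unadjusted p under 0.05, in either direction, numbered 1 in fl/fl, 0 in D164A/fl, 1 in D164A/-, 8 in ΔC/fl, 2 in ΔC/-, 1 in dm/fl and 6 in dm/- cells. Against shares of about 3%, 0 or 1 call among 9 tested genes is near the background. The count and the median in ΔC/fl cells cannot be read against all genes, since Actg2, Tagln and Myl9 passed the filter through the ΔC/fl samples. In all, 12 of 63 responses were called. With the TGFβ experiment fitted alone, and likewise with the replicate number as a block or the GC trend removed, 6 members were called up in dm/- cells. The median log2 change of the 9 tested members was 1.15 in dm/- cells, against 0.00 over all genes, and 1.60 in ΔC/fl cells. It was 0.19, 0.01, 0.09, 0.03 and 0.24 in fl/fl, D164A/fl, D164A/-, ΔC/- and dm/fl cells.

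**Figure D2:**
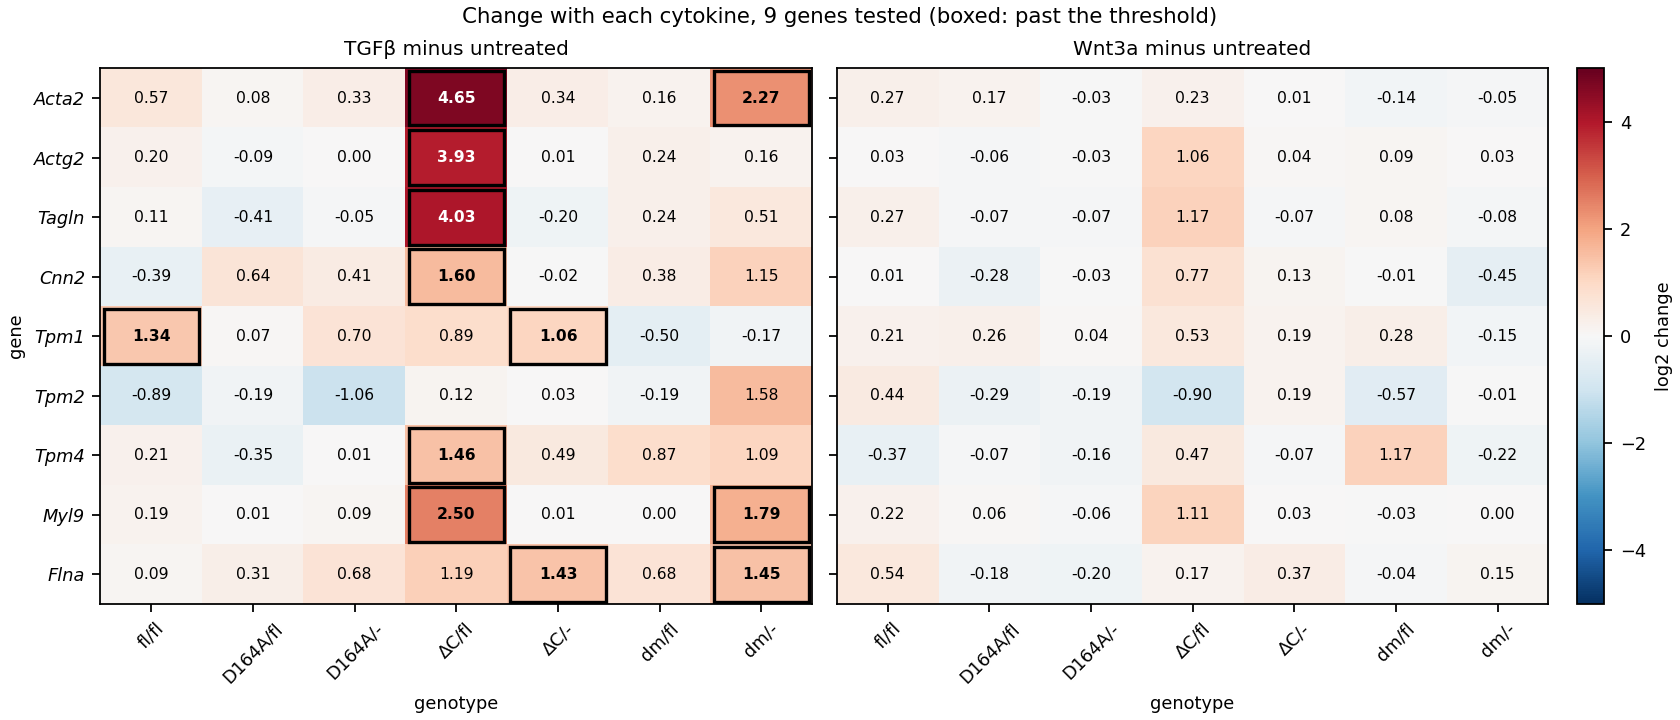
Log2 change with TGFβ (left) and with Wnt3a (right) of each tested member in each genotype, with called changes boxed. The largest are Acta2 (4.65), Tagln (4.03) and Actg2 (3.93) in ΔC/fl cells.

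Promoters were read from RefSeq (GRCm38.p6), which held an entry for 8 of the 10 members, as the 250 bases before an annotated transcript start. They were searched on both strands for the CArG box, the motif of serum response factor, for CATTCC, the MCAT motif of TEAD factors, and for CAGAC, a Smad-binding motif. The following stretches are the parts before the first annotated exon base of each window, in lower case with the match in capitals. Cnn2 and Myl9, which were both called up in ΔC/fl cells, are shown because they held the only exact CArG boxes among the 8 members searched (Actg2 and Tagln had no entry), and Flna because it was called up in both ΔC/- and dm/- cells and held CATTCC.
Cnn2 promoter: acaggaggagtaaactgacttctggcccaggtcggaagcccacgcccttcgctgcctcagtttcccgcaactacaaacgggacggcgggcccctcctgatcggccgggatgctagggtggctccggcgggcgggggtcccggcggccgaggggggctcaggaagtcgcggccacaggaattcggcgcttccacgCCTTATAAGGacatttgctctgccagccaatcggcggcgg
Myl9 promoter: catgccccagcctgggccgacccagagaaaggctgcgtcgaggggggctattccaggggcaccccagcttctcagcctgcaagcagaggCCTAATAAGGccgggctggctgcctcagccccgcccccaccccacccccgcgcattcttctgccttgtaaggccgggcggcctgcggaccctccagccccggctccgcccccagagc
Flna promoter: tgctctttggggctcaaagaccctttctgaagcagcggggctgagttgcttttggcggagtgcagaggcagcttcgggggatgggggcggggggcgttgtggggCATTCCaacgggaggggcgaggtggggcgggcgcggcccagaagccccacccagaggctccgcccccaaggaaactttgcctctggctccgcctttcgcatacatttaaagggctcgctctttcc
These are chr10:79988350-79988583 on the plus strand, chr2:156775214-156775419 on the plus strand and chrX:74246556-74246784 on the minus strand. The matches start at −56, −161 and −146 relative to that start. An exact CArG box occurred in 1.47% of 32851 promoters and in 2 of the 8 members. With at most 1 mismatch it occurred in 18.6% of promoters and in 5 members (Acta2, Cnn2, Tpm1, Myl9 and Flna). Acta2 held 2 such matches, at −84 and −34, both within exons. Of the 250 bases searched, 217 in Acta2 and 193 in Tpm1 lie in annotated exons. The Tpm4 window has 0 bases before the first exon base. The absence of an exact box in these windows therefore says little about sequence outside exons. CATTCC was found in 12.6% of promoters and in 3 members (Acta2, Tpm1, Flna), and CAGAC in 42.2% and in 1 member (Acta2). The CATTCC matches of Acta2 and Tpm1 lie within exons, and the Flna and Myl9 stretches precede starts inside the spans of their genes. The Myl9 stretch itself runs to 156775419, past 156775408, where the span given for Myl9 below begins. A match is a string of letters and not evidence of binding.

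Acta2 (Entrez 11475, chromosome 19, 34240336 to 34255585 of GRCm38) encodes α-smooth muscle actin, a marker of myofibroblasts and myoepithelium. In ΔC/fl cells it had 3.16 and 2.67 units untreated and 189 and 50.0 units with TGFβ. In dm/- cells it had 0.0611 and 0 units untreated and 1.78 and 7.87 with TGFβ, and in dm/fl cells 2.24 and 1.34 untreated and 4.36 and 0.756 with TGFβ. Treated ΔC/fl samples were far above every other sample, treated dm/- samples lay above their untreated ones, and dm/fl groups overlapped. In fl/fl cells the values were 0.0403 and 0 untreated and 0.621 and 0.405 treated, and in ΔC/- cells 0 and 0 untreated and 0.386 and 0.158 treated. D164A/fl cells had 0.0708 and 0.0322 untreated and 0.148 and 0.0777 treated, and D164A/- cells 0.154 and 0.190 untreated and 0.397 and 0.550 treated. Treated samples were thus above untreated ones in 6 of 7 genotypes, mostly below 1 unit.

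Acta2 rose 41.0-fold in ΔC/fl cells (log2 change 4.65 ± 0.47 SE, limma adjusted p = 1.34e-08) and at least 48.7-fold in dm/- cells, where untreated cells were under the detection limit (2.27 ± 0.47, limma adjusted p = 0.00133). The ΔC/fl call held with each of its 4 samples left out, with log2 changes from 3.71 to 5.60. Without replicate 2 of treated dm/- cells the dm/- change was 1.43 (limma adjusted p = 0.147). The fl/fl change of 0.57 was not called on the log2(value + 1) scale (limma adjusted p = 0.876), although treated fl/fl cells were at least 4.40-fold higher. With a pseudocount of 0.1 it was called, with a log2 change of 2.35 (limma adjusted p = 0.0358). By edgeR, which works on reads, the log2 change was 4.43 in fl/fl (edgeR adjusted p = 0.0633), 5.85 in ΔC/- (0.0716), 5.34 in ΔC/fl (0.000302) and 7.04 in dm/- cells (0.000304). The size of the Acta2 response in lines with little Acta2 therefore depended on the scale.

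Actg2 (Entrez 11468, chromosome 6, 83512909 to 83536251), the γ-actin of smooth muscle, had 1.44 and 2.70 units in untreated and 79.5 and 25.1 units in TGFβ-treated ΔC/fl cells. It did not exceed 0.361 units in any of the 48 samples of the other genotypes and was at 0 in 13 of them. The treated ΔC/fl samples were above all other samples, and untreated ΔC/fl samples were above all samples of other genotypes. TGFβ raised Actg2 25.3-fold in ΔC/fl cells (log2 change 3.93 ± 0.34 SE, limma adjusted p = 2.71e-10), and the call held with each of the 4 samples left out (3.12 to 4.74).

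Tagln (Entrez 21345, chromosome 9, 45929628 to 45936058), which encodes transgelin, had 0.720 and 1.08 units in untreated and 66.5 and 13.1 units in treated ΔC/fl cells. Its highest value in the other 48 samples was 1.09 units, in replicate 2 of treated dm/- cells, whose partner had 0.227 against 0.214 and 0.0354 untreated. The increase in ΔC/fl cells was 44.2-fold (log2 change 4.03 ± 0.36 SE, limma adjusted p = 9.78e-10). It held with each sample left out, from 2.89 to 5.16. For Acta2, Actg2 and Tagln alike, replicate 1 of the treated ΔC/fl cells had the higher value.

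Calponins differed from each other. Cnn1 (Entrez 12797, chromosome 9, 22099221 to 22109221), the smooth muscle calponin, had a median of 0.0352 units, was at 0 in 24 of 56 samples and reached 0.722 at most, in replicate 2 of fl/fl cells with Wnt3a. In fl/fl cells it had 0.161 and 0.150 units untreated and 0.266 and 0.552 with TGFβ. In ΔC/fl cells, where the smooth muscle actins were high, it did not exceed 0.146 units. When the filter was dropped, its log2 change with TGFβ was 0.28 in fl/fl cells (limma adjusted p = 0.0623) and its change with Wnt3a was 0.48 (limma adjusted p = 0.00457, below the fold required).

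Cnn2 (Entrez 12798, chromosome 10, 79988600 to 79995400), the calponin of non-muscle cells whose promoter is given above, was measured in all samples. It had 213 and 223 units in untreated and 750.4 and 583 units in treated ΔC/fl cells, and 121 and 106 untreated and 222 and 286 treated in dm/- cells. In fl/fl cells it had 155 and 180.2 untreated and 118 and 138 treated, and in dm/fl cells 118 and 159.9 untreated and 156 and 206 treated. D164A/fl cells had 26.7 and 51.6 untreated and 42.9 and 79.6 treated. Treated samples were above untreated ones in ΔC/fl and dm/- cells and below them in fl/fl cells, while the groups overlapped in the dm/fl and D164A/fl lines. D164A/- cells had 67.8 and 101 untreated and 96.9 and 127 treated, and ΔC/- cells 126 and 150.4 untreated and 93.4 and 197 treated, with overlapping groups in both. Cnn2 rose 3.05-fold in ΔC/fl cells (log2 change 1.60 ± 0.51 SE, limma adjusted p = 0.0420). Without the filter the change was about as large and the call was lost (limma adjusted p = 0.0556). That call was lost with any 1 of the 4 samples left out, with log2 changes of 1.41 without replicate 1 of the treated cells (limma adjusted p = 0.308), 1.56 without replicate 1 of the untreated (0.181), 1.63 without replicate 2 of the untreated (0.165) and 1.78 without replicate 2 of the treated cells (0.0906). The log2 change in dm/- cells was 1.15 (limma adjusted p = 0.210), and it was called with the TGFβ experiment fitted alone and with the GC trend removed.

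Tropomyosins were followed through Tpm1, Tpm2 and Tpm4. Tpm1 (Entrez 22003, chromosome 9, 67022590 to 67049672) had 718 and 1253 units in untreated and 2169 and 2656 in treated fl/fl cells. In ΔC/- cells it had 687 and 686 untreated and 1198 and 1718 treated, and in ΔC/fl cells 1369.7 and 1420.2 untreated and 3479 and 1925 treated. These 3 lines had non-overlapping groups with the treated samples on top. D164A/- cells also had higher treated values, 509.6 and 557 against 882 and 854, whereas D164A/fl cells (340.2 and 341 against 326 and 392) overlapped. In dm/fl cells the values were 1116 and 819.8 untreated and 931 and 489 treated, and in dm/- cells 312 and 297 untreated and 261 and 279.9 treated, so both treated dm/- samples were lower.

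Tpm1 was the only tested member called in fl/fl cells, with a 2.45-fold increase (log2 change 1.34 ± 0.32 SE, limma adjusted p = 0.00521), and it also rose 2.12-fold in ΔC/- cells (1.06 ± 0.32, limma adjusted p = 0.0326). In fl/fl cells the call was lost without replicate 1 of the untreated (0.94, limma adjusted p = 0.235) or replicate 2 of the treated cells (1.19, limma adjusted p = 0.0989). In ΔC/- cells it was lost without replicate 1 (1.06, limma adjusted p = 0.170) or 2 (1.06, 0.154) of the untreated or replicate 2 of the treated cells (0.80, 0.361). The ΔC/fl change was 0.89 (limma adjusted p = 0.0809) and reached 1.32 without replicate 2 of the treated cells (limma adjusted p = 0.0244). In D164A/- cells it was 0.70.

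Tpm2 (Entrez 22004, chromosome 4, 43513726 to 43523583) varied more between lines than with treatment, from 0.538 to 359.8 units. Treated and untreated values were 53.9 and 75.8 against 93.0 and 153 in fl/fl, 8.13 and 14.7 against 11.2 and 14.2 in D164A/fl, 1.06 and 2.27 against 3.44 and 5.56 in D164A/-, and 3.94 and 2.17 against 1.92 and 3.56 in ΔC/fl cells. They were 0.540 and 0.751 against 0.582 and 0.629 in ΔC/-, 66.4 and 113 against 79.5 and 123 in dm/fl, and 118 and 120.1 against 48.3 and 31.8 in dm/- cells. The treated samples were lower in fl/fl and D164A/- and higher in dm/- cells, without overlap, and the other 4 genotypes overlapped. Its log2 changes of −0.89, −1.06 and 1.58 in these 3 lines were not called (limma adjusted p = 0.135 in dm/- cells). The dm/- change was called with the TGFβ experiment fitted alone (1.58) and with the GC trend removed (1.53), and the D164A/- change with the GC trend removed (−1.19).

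Tpm4 (Entrez 326618, chromosome 8, 72135288 to 72153142) had 517 and 503 units in untreated and 1588 and 1248 in treated ΔC/fl cells. It had 467 and 397 against 815 and 761 in dm/fl, 233 and 293 against 481 and 646 in dm/-, and 232 and 267 against 363 and 339 in ΔC/- cells. Treated samples were above untreated ones in all 4 of these lines. In fl/fl cells it had 570.5 and 616 untreated and 689 and 685 treated, in D164A/fl 577 and 482 untreated and 401 and 427 treated, and in D164A/- 413 and 431 untreated and 347 and 522 treated, so treated samples were higher in fl/fl, lower in D164A/fl and overlapping in D164A/- cells. Tpm4 rose 2.78-fold in ΔC/fl cells (log2 change 1.46 ± 0.39 SE, limma adjusted p = 0.0109). The call was lost without replicate 1 (1.48, limma adjusted p = 0.0626) or 2 (1.44, 0.0777) of the untreated or replicate 1 of the treated cells (1.29, 0.150). Its log2 change of 1.09 in dm/- cells missed the threshold (limma adjusted p = 0.0874). It passed once the Wnt3a conditions with distant replicates were left out (limma adjusted p = 0.000820). It was also called with the TGFβ experiment fitted alone, the replicate number as a block or the GC trend removed (1.17).

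Myl9 (Entrez 98932, chromosome 2, 156775408 to 156781657), a regulatory myosin light chain that is phosphorylated to start contraction, had 14.8 and 18.6 units in untreated and 129.7 and 74.5 units in treated ΔC/fl cells. In dm/- cells it had 0 and 0 units untreated and 0.833 and 5.52 treated, and in dm/fl cells it was at 0 in all 4 samples of the experiment. In fl/fl cells the values were 0.121 and 0.262 untreated and 0.0444 and 0.772 treated. ΔC/fl samples stood above all others before treatment, and outside ΔC/fl and treated dm/- cells no sample exceeded 0.772 units. Myl9 rose 6.11-fold in ΔC/fl cells (log2 change 2.50 ± 0.48 SE, limma adjusted p = 0.000335) and at least 32.1-fold in dm/- cells (1.79 ± 0.48, limma adjusted p = 0.0135). The ΔC/fl call held with each sample left out (2.10 to 2.89), but edgeR gave 2.59 with an adjusted p of 0.0863. The limma call in dm/- cells was lost without replicate 2 of the treated cells (0.87, adjusted p = 0.529) or replicate 1 (1.79, 0.0872) or 2 (1.79, 0.0962) of the untreated cells.

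Flna (Entrez 192176, chromosome X, 74223461 to 74249854), filamin A, was the most abundant member per kilobase. It had 1129 and 1496 units in untreated and 2741 and 4486 in treated ΔC/- cells, and 1807 and 1915 untreated and 4529 and 5673 treated in dm/- cells. In ΔC/fl cells it had 2983 and 3101 untreated and 7751 and 6219.9 treated. The treated samples were above the untreated ones in these lines and in D164A/fl (1981 and 2131 against 2325 and 2781), D164A/- (1241 and 1601 against 2009.6 and 2529.9) and dm/fl cells (2322 and 2652 against 3774 and 4196), whereas fl/fl cells overlapped (3290.0 and 2958 against 3211 and 3446). Flna rose 2.75-fold in ΔC/- (log2 change 1.43 ± 0.40 SE, limma adjusted p = 0.0174) and 2.74-fold in dm/- cells (1.45 ± 0.40, limma adjusted p = 0.0179).

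The 2.30-fold difference of Flna in ΔC/fl cells (log2 change 1.19) missed the threshold with a limma adjusted p of 0.0518. It passed by edgeR (1.18, edgeR adjusted p = 0.0462) and with a pseudocount of 0.1 (limma adjusted p = 0.0495). It also passed with median of ratios, the TGFβ experiment fitted alone, the replicate number as a block or the GC trend removed (1.14). With the Wnt3a conditions of distant replicates left out, its limma adjusted p was 0.0219. In ΔC/- cells the call was lost without replicate 1 of the untreated (1.23, limma adjusted p = 0.207) or replicate 2 of the treated cells (1.08, 0.287), and in dm/- cells without replicate 1 (1.40, 0.119) or 2 (1.49, 0.101) of the untreated or replicate 2 of the treated cells (1.28, 0.173). edgeR called the same number of members as limma in ΔC/fl cells, 6, but with Flna in place of Myl9.

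**Figure D3:**
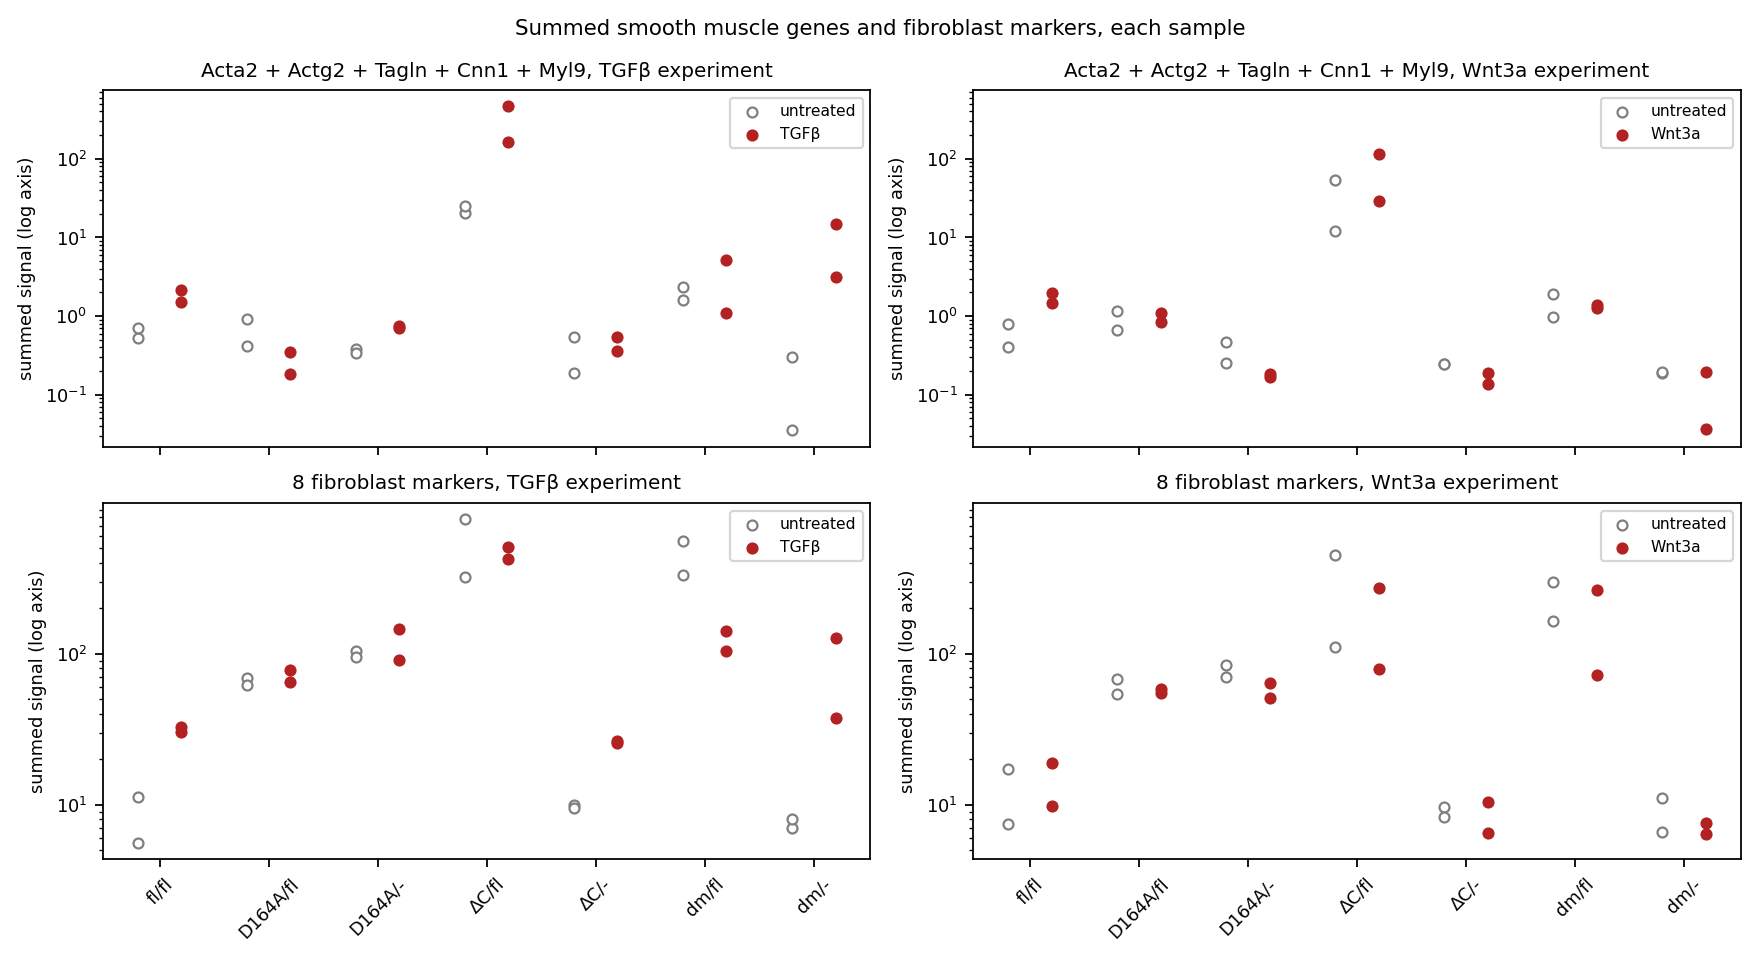
Summed units (log axis) of Acta2, Actg2, Tagln, Cnn1 and Myl9 (top) and of 8 fibroblast markers (bottom) in each sample of the TGFβ (left) and Wnt3a (right) experiments.

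Markers of other cell types were set beside the ΔC/fl and dm/- results, and the plot of summed values shows the fibroblast list. In ΔC/fl cells the fibroblast sums of treated and untreated samples overlapped. The basal, luminal and smooth muscle or pericyte sums were lower with TGFβ there. In dm/- cells the fibroblast and basal sums were higher with TGFβ. Acta2, Actg2, Tagln, Cnn1 and Myl9 together had 20.2 and 25.1 units in untreated and 464.5 and 163 in treated ΔC/fl cells, and 0.306 and 0.0354 untreated against 3.11 and 14.7 treated in dm/- cells. The 8 fibroblast markers summed to 779 and 321 units in untreated and 507 and 421 in treated ΔC/fl cells, with 6 and 5 markers above 1 unit before and 5 and 5 after treatment and Pdgfrb on top (494 and 215 units untreated, 208 and 279 treated). Within that list Col1a1 went from 7.60 and 4.25 to 70.9 and 23.0 units and Col3a1 from 34.8 and 7.84 to 183.6 and 51.8, with replicate 1 higher as for the actins, while Lum and Thy1 were at 0 in both treated samples. In dm/- cells the fibroblast list summed to 7.06 and 8.06 units untreated and 37.5 and 126.6 treated, with 2 and 1 markers above 1 unit before and 3 and 3 after, and Pdgfrb on top of the treated samples (17.0 and 99.4). Replicate 2 was higher there, as for Acta2 and Myl9, and Lum and Thy1 were at 0 in all 4 samples.

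The 5 smooth muscle or pericyte markers (Myh11, Des, Rgs5, Cspg4, Notch3) summed to 8.04 and 8.35 units in untreated and 1.26 and 1.57 in treated ΔC/fl cells. Notch3 gave most of each sum except in replicate 1 of the treated cells, where it had 0.584 units. Myh11, the myosin heavy chain of smooth muscle, did not exceed 0.243 units there. The list in dm/- cells had 9.72 and 5.16 units untreated and 9.39 and 5.32 treated, where Rgs5 went from 0.0611 and 0.0707 to 4.36 and 4.00. The 5 basal or myoepithelial markers summed to 298 and 581 units in untreated and 40.5 and 28.8 in treated ΔC/fl cells, led by Krt14, and to 129 and 52.6 untreated against 529 and 244 treated in dm/- cells. The 5 luminal markers summed to 1589.6 and 2115 units in untreated and 1146.8 and 1511.8 in treated ΔC/fl cells, mostly from Krt8 (415 and 761 untreated, 583 and 771 treated) and Krt18 (481 and 631 untreated, 414 and 615 treated). Within that list Epcam and Cdh1 had 369 and 388 and 324 and 335 units in untreated ΔC/fl cells and 76.8 and 75.3 and 73.4 and 49.9 units in treated ones. Endothelial markers did not exceed a sum of 3.71 units in any sample but treated dm/fl (35.1 and 34.1, from Cdh5), and the leukocyte list, led there by Csf1r, was highest in dm/fl cells. The part of these markers in the results of the members was not tested.

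**Figure D4:**
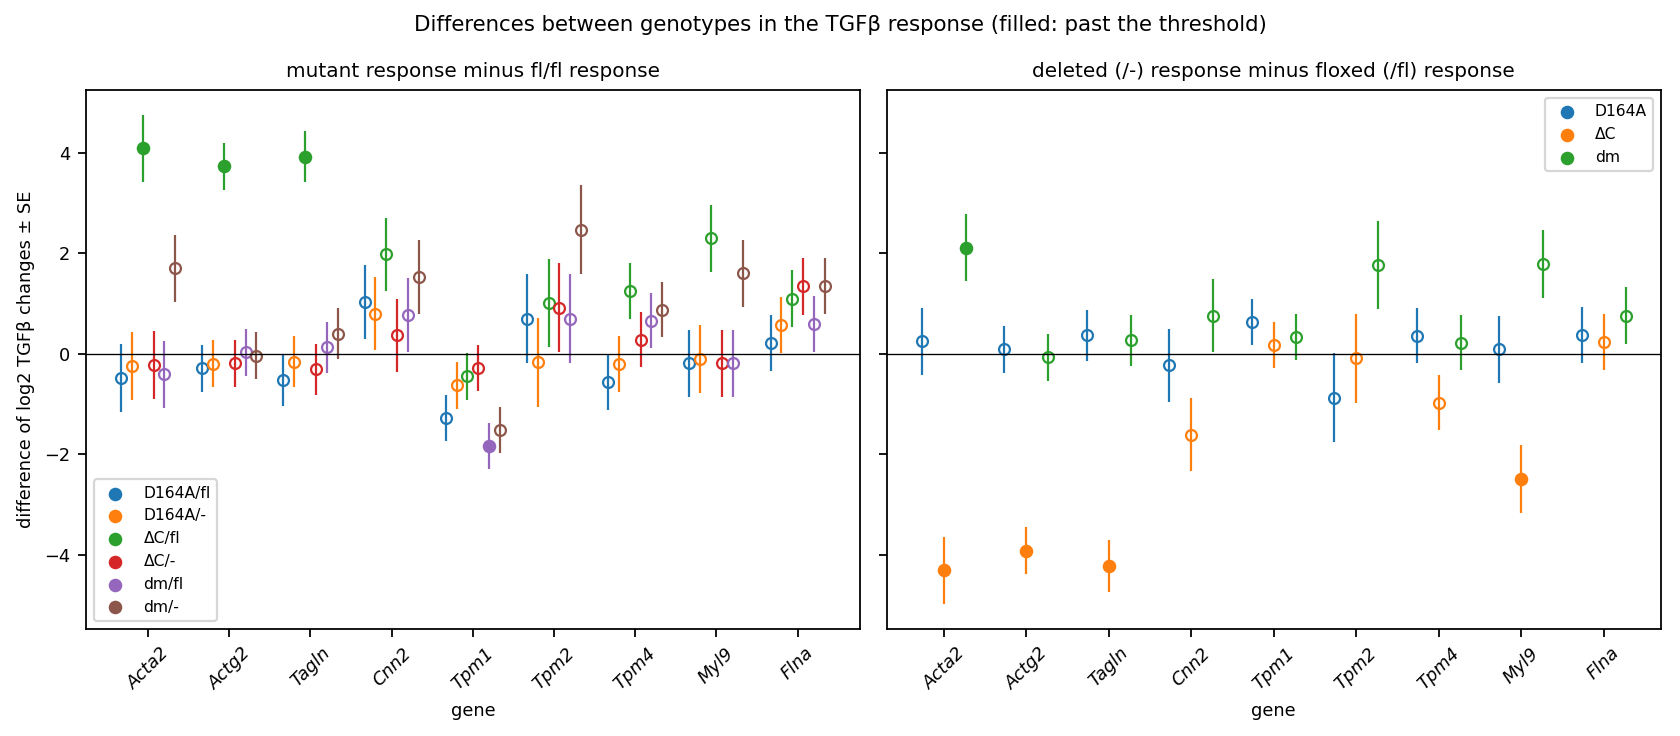
Difference of the log2 change with TGFβ of each tested member between each mutant genotype and fl/fl, and between deleted and floxed lines, with called differences filled and bars of 1 SE. ΔC/fl minus fl/fl is 4.09 for Acta2, 3.73 for Actg2 and 3.92 for Tagln.

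Whether a response differed between genotypes was tested on the difference itself, and the plot of response differences shows the result. On the log2(value + 1) scale the increase of Acta2, Actg2 and Tagln was larger in ΔC/fl than in fl/fl cells. Actg2 and Tagln passed the filter through the ΔC/fl samples, which favors such a difference. The response of Tpm1 was called lower in dm/fl than in fl/fl cells, a single call that is near the background. Limma called 3 members in ΔC/fl (2.69% of all genes) and 1 in dm/fl cells (4.04%). It called 0 in D164A/fl (3.81%), D164A/- (4.28%), ΔC/- (2.01%) and dm/- cells (2.78%), with 1, 0, 1 and 6 members at an unadjusted p under 0.05. With the TGFβ experiment fitted alone, 3 members were called in dm/- (Tpm1, Tpm2 and Flna), 1 in ΔC/- (Flna) and 7 in ΔC/fl cells. With the GC trend removed, the same genes were called in dm/- and ΔC/-, Tpm1 in D164A/fl, and 5 members in ΔC/fl cells. In ΔC/fl and dm/fl cells 6 and 1 members were at an unadjusted p under 0.05. edgeR called 0 members in each of the 6 genotypes, with 2, 0, 5, 1, 2 and 5 at an unadjusted p under 0.05 in D164A/fl, D164A/-, ΔC/fl, ΔC/-, dm/fl and dm/- cells. These comparisons share the fl/fl samples. With the replicate number as a block, limma called 1 member in D164A/fl, 6 in ΔC/fl, 1 in ΔC/- and 6 in dm/- cells. The labels do not say that a number marks a shared day.

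In ΔC/fl cells the response exceeded that of fl/fl cells by 4.09 ± 0.67 (SE) for Acta2, 3.73 ± 0.47 for Actg2 and 3.92 ± 0.51 for Tagln on the log2(value + 1) scale (limma adjusted p = 0.000157, 2.89e-06 and 4.62e-06). These held with each of the 8 samples left out in turn. On the scale of ratios they were less firm. edgeR gave 0.91 for Acta2 (edgeR adjusted p = 1.00), 3.50 for Actg2 (0.443) and 4.64 for Tagln (0.115), and limma with a pseudocount of 0.1 gave 2.67 (limma adjusted p = 0.268), 3.61 (0.0179) and 4.44 (0.00529). Untreated fl/fl cells had Acta2 under the detection limit, so whether its fold differed between the lines cannot be told. Myl9 missed the threshold at 2.30 (limma adjusted p = 0.0549) and passed it without replicate 2 of treated ΔC/fl cells (2.70, limma adjusted p = 0.0448). Tpm4 passed it at 1.25 (limma adjusted p = 0.0155) when the Wnt3a conditions with distant replicates were left out.

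For Tpm1 the response in dm/fl cells was lower than in fl/fl cells by a log2 difference of −1.84 ± 0.46 SE (limma adjusted p = 0.0117, edgeR −1.70 with adjusted p = 0.0674). The call was lost without replicate 1 of untreated fl/fl (−1.44, limma adjusted p = 0.131), replicate 2 of treated fl/fl (−1.69, 0.0689), replicate 1 of untreated dm/fl (−1.62, 0.106) or replicate 2 of treated dm/fl cells (−1.38, 0.186). The Tpm1 difference in dm/- cells was −1.51 and passed without replicate 2 of untreated fl/fl cells (−1.91, limma adjusted p = 0.0267). Without replicate 1 of treated dm/- cells, Acta2 (2.54, limma adjusted p = 0.0396) and Myl9 (2.51, limma adjusted p = 0.0368) passed in that line.

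Responses were also compared between deleted lines and their floxed partners. Limma called 4 members for ΔC (3.13% of all genes), 1 for dm (7.31%) and 0 for D164A (1.35%), with 5, 2 and 0 members at an unadjusted p under 0.05. edgeR called 1, 1 and 0 members. The single dm call is near the background. For dm 3 members were called with the TGFβ experiment fitted alone or with the replicate number as a block, and 2 with the GC trend removed. For ΔC these settings called Cnn2 as well, at −1.61, −1.61 and −1.77. Of the ΔC calls, those of Actg2, Tagln and Myl9 concern genes that passed the filter through the ΔC/fl samples, which favors such a difference, so that count cannot be read against the share of all genes. The response was lower in ΔC/- than in ΔC/fl cells, with log2 differences of −4.31 ± 0.67 (SE) for Acta2, −3.92 ± 0.47 for Actg2, −4.22 ± 0.51 for Tagln and −2.49 ± 0.67 for Myl9 (limma adjusted p = 9.10e-05, 1.31e-06, 1.40e-06 and 0.0295). The first 3 held with each of 8 samples left out.

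These ΔC differences depend on the scale as well. edgeR called Tagln (−7.29, edgeR adjusted p = 0.00424), gave −4.49 for Actg2 (0.500) and −2.47 for Myl9 (0.978), and put Acta2 at 0.52 with the opposite sign (0.983), with untreated ΔC/- cells at 0 units in both replicates. With a pseudocount of 0.1 Acta2 (−3.19, limma adjusted p = 0.102) and Myl9 (−2.52, 0.257) were not called, and Actg2 (−4.31) and Tagln (−5.75) were. Myl9 was also lost in 7 of the 8 sets with 1 sample left out, kept only without replicate 2 of treated ΔC/fl cells, with log2 differences from −2.65 without replicate 2 of untreated ΔC/fl (limma adjusted p = 0.0540) to −2.09 without replicate 1 of treated ΔC/fl cells (0.182). The other losses were at −2.34 without replicate 1 of untreated ΔC/fl cells and at −2.51 and −2.47 without untreated and −2.46 and −2.52 without treated ΔC/- replicates 1 and 2.

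In dm/- cells the Acta2 response exceeded that of dm/fl cells by 2.11 ± 0.67 SE (limma adjusted p = 0.0460), and edgeR called it too at 6.48. It was lost in 6 of the 8 sets with 1 sample left out, namely without any 1 of the untreated samples of either line or without replicate 2 of either treated group. The log2 differences in these sets ran from 1.27 without replicate 2 of treated dm/- (limma adjusted p = 0.352) and 1.31 without replicate 2 of treated dm/fl (0.401) to 2.35 without replicate 2 of untreated dm/fl cells (0.0545). Myl9 was called at 2.70 without replicate 1 of treated dm/- cells (limma adjusted p = 0.00975).

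**Figure D5:**
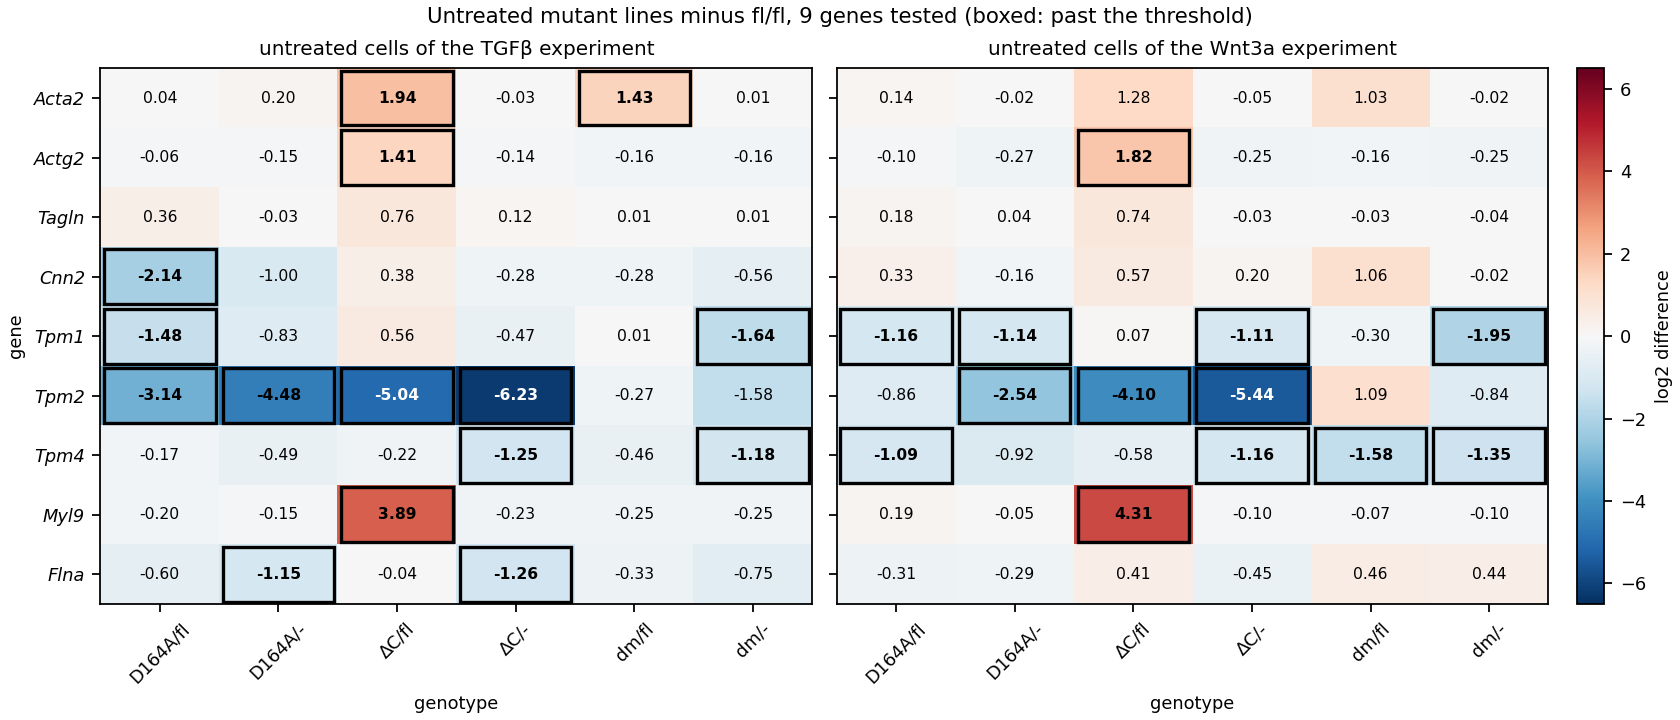
Log2 difference of each tested member between untreated mutant and untreated fl/fl cells, in the TGFβ and in the Wnt3a experiment, with called differences boxed. Tpm2 is lower in ΔC/- cells by −6.23 and −5.44 and Myl9 higher in ΔC/fl cells by 3.89 and 4.31.

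Before treatment the lines already differed, and the plot of untreated differences sets the 2 experiments side by side. In untreated cells of the TGFβ experiment limma called 3 members against fl/fl in D164A/fl (14.7% of all genes), 2 in D164A/- (19.4%), 4 in ΔC/fl (16.0%), 3 in ΔC/- (22.0%), 1 in dm/fl (16.0%) and 2 in dm/- cells (14.0%), 15 of 54 in all, 4 higher and 11 lower. In the Wnt3a experiment, with samples of its own, it called 2 in D164A/fl (19.7%), 2 in D164A/- (17.1%), 3 in ΔC/fl (13.8%), 3 in ΔC/- (15.4%), 1 in dm/fl (32.7%) and 2 in dm/- cells (18.3%), 13 of 54, 2 higher and 11 lower. With 9 genes tested and shares of that size, 1 to 3 calls are near the background, and a genotype cannot be told apart from a line.

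Tpm2 had 93.0 and 153 units in untreated fl/fl cells of the TGFβ experiment and 94.7 and 80.8 in those of the Wnt3a experiment. In ΔC/- cells it had 0.582 and 0.629 and, in the Wnt3a experiment, 0.538 and 1.70 units, and in ΔC/fl cells 1.92 and 3.56 and 2.08 and 7.71. D164A/- cells had 3.44 and 5.56 and 9.19 and 21.7. All of these lay below every untreated fl/fl sample. Tpm2 was 203-fold and 78.5-fold lower in ΔC/- cells (log2 difference −6.23 ± 0.63 SE and −5.44 ± 0.63, limma adjusted p = 1.87e-09 and 3.10e-08), 44.9-fold and 17.9-fold lower in ΔC/fl cells (−5.04 and −4.10, limma adjusted p = 1.25e-07 and 7.21e-06) and 27.3-fold and 5.69-fold lower in D164A/- cells (−4.48 and −2.54, limma adjusted p = 7.39e-07 and 0.00250). The last was lost without replicate 1 of the untreated D164A/- cells of the Wnt3a experiment (−1.97, limma adjusted p = 0.0737). Tpm2 in dm/- cells of the TGFβ experiment (−1.58) was not called, and was called lower with the TGFβ experiment fitted alone and with the Wnt3a conditions of distant replicates left out (limma adjusted p = 0.0320 in the latter). In D164A/fl cells Tpm2 was 9.68-fold lower in the TGFβ experiment (−3.14, limma adjusted p = 0.000279), with a difference of −0.86 in the Wnt3a experiment, where its values were 28.8 and 78.5.

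Myl9 and Actg2 passed the filter through ΔC/fl samples, which favors finding them higher there. Myl9 was 87.2-fold higher in untreated ΔC/fl than in fl/fl cells of the TGFβ experiment (log2 difference 3.89 ± 0.48 SE, limma adjusted p = 9.39e-08). In the Wnt3a experiment, with 9.01 and 43.9 against 0.0315 and 0.115 units, it was at least 252-fold higher (4.31 ± 0.48, limma adjusted p = 1.67e-08). Actg2 was 15.5-fold and 15.6-fold higher in ΔC/fl cells (1.41 and 1.82, limma adjusted p = 0.00195 and 0.000120), the first lost without replicate 2 of untreated ΔC/fl cells (1.11, limma adjusted p = 0.0555). Acta2 was at least 25.0-fold higher in untreated ΔC/fl (1.94, limma adjusted p = 0.00252) and at least 15.3-fold higher in untreated dm/fl cells of the TGFβ experiment (1.43, limma adjusted p = 0.0263). The dm/fl call was lost without replicate 1 of untreated dm/fl (limma adjusted p = 0.213) or replicate 1 (1.46, 0.107) or 2 (1.40, 0.102) of untreated fl/fl cells. The 8 fibroblast markers summed to 554 and 332 units in these untreated dm/fl samples, with 6 and 5 above 1 unit, Lum and Thy1 at 0 and Pdgfra on top, against 11.2 and 5.58 in untreated fl/fl samples, and their part in the result was not tested. In the Wnt3a experiment the Acta2 differences of 1.28 in ΔC/fl and 1.03 in dm/fl cells were not called by limma, and edgeR called both (5.06 and 4.38, edgeR adjusted p = 0.00175 and 0.00433). With the Wnt3a conditions of distant replicates left out, limma also called Acta2 in ΔC/fl cells (limma adjusted p = 0.0467).

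Among the other differences before treatment, Tpm1 was lower in dm/- cells in both experiments (log2 difference −1.64 and −1.95, limma adjusted p = 0.000248 and 2.36e-05) and in D164A/fl cells (−1.48 and −1.16, limma adjusted p = 0.000856 and 0.00710). The D164A/fl calls were lost without replicate 2 of fl/fl in the TGFβ experiment (−1.07, limma adjusted p = 0.0654) and, in the Wnt3a experiment, without replicate 1 of fl/fl (−1.01, 0.0770) or of D164A/fl (−0.87, 0.0921). In the Wnt3a experiment it was also lower in D164A/- (−1.14) and ΔC/- cells (−1.11). The former was lost without replicate 1 of fl/fl (−0.99) or of D164A/- (−1.04), the latter without replicate 1 of fl/fl (−0.96) or replicate 2 of ΔC/- cells (−1.05). Cnn2 was 4.28-fold lower in D164A/fl cells of the TGFβ experiment (−2.14, limma adjusted p = 0.00232), lost without replicate 1 of those cells (−1.68, limma adjusted p = 0.0838).

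Tpm4 and Flna were lower in several lines, by calls that single samples decided. Tpm4 had log2 differences of −1.25 and −1.16 in ΔC/- and −1.18 and −1.35 in dm/- cells (limma adjusted p = 0.0142, 0.0303, 0.0299 and 0.0112). In the TGFβ experiment the ΔC/- call was lost without replicate 1 of ΔC/- (−1.15) or 2 of fl/fl cells (−1.19), and the dm/- call without any 1 of its 4 samples, from −1.34 without replicate 2 to −1.02 without replicate 1 of dm/- cells. In the Wnt3a experiment the ΔC/- call was lost without any 1 of its 4 samples (−0.99 to −1.34), and the dm/- call without replicate 1 of fl/fl (−1.25) or 2 of dm/- cells (−1.17). Tpm4 was lower in D164A/fl cells only in the Wnt3a experiment (−1.09), lost without either fl/fl replicate (−0.99 and −1.18) or replicate 2 of D164A/fl cells (−0.82). In dm/fl cells of that experiment, with 135 and 660.2 units, the call of −1.58 rested on replicate 1 and was lost without it (−0.44, limma adjusted p = 0.504). Flna was lower in D164A/- (−1.15, limma adjusted p = 0.0323) and ΔC/- cells (−1.26, limma adjusted p = 0.0150) of the TGFβ experiment. The D164A/- call was lost without any 1 of its 4 samples (−0.96 without replicate 1 to −1.33 without replicate 2 of D164A/- cells), and the ΔC/- call without replicate 1 (−1.19) or 2 (−1.34) of fl/fl or replicate 1 of ΔC/- cells (−1.06).

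Untreated cells of a genotype were also compared between the TGFβ and the Wnt3a experiment, which differ by a day in culture. Limma called 1 member in D164A/fl (8.64% of all genes) and 0 in fl/fl (0.189%), D164A/- (1.18%), ΔC/fl (2.73%), ΔC/- (0.662%), dm/fl (2.44%) and dm/- cells (0.291%), with 3, 0, 1, 0, 0, 0 and 1 at an unadjusted p under 0.05. edgeR called 1 in D164A/fl and 0 in the others, with 3, 0, 1, 0, 0, 1 and 1 at an unadjusted p under 0.05. The gene was Cnn2, with 39.2 units on average in the TGFβ and 152 in the Wnt3a experiment (log2 difference −1.93 ± 0.51 SE, limma adjusted p = 0.0107). It was lost without replicate 1 of the former (−1.47, limma adjusted p = 0.261) or replicate 2 of the latter (−1.47, 0.287). With the Wnt3a conditions of distant replicates left out, Tpm2 was called in D164A/fl cells as well (−1.84, limma adjusted p = 0.0173). In dm/fl cells, where the Wnt3a replicates stood apart, Cnn2 (−1.71), Tpm2 (−1.85) and Tpm4 (1.66) passed without replicate 2 of that untreated group.

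With Wnt3a, limma called 0 of the 9 tested members in fl/fl (0.378% of all genes), D164A/fl (4.15%), D164A/- (0.654%), ΔC/fl (0.225%), ΔC/- (0.0509%), dm/fl (0.574%) and dm/- cells (0.00%). At an unadjusted p under 0.05 there were 3 members in ΔC/fl, 1 in dm/fl and 0 in the other lines, and edgeR called 0 in each line, with 1 at an unadjusted p under 0.05 in ΔC/fl cells and 0 elsewhere. In ΔC/fl cells Actg2 had 2.08 and 5.17 units untreated and 4.37 and 14.4 with Wnt3a, Tagln 0.422 and 1.55 and 2.13 and 4.89, and Myl9 9.01 and 43.9 and 21.3 and 92.5. For each of these genes replicate 2 was higher in each group, the treated sample was above the untreated one of the same number, and the groups of Actg2 and Myl9 overlapped. The log2 changes were 1.06 for Actg2, 1.17 for Tagln and 1.11 for Myl9 (limma adjusted p = 0.431, 0.389 and 1.00). Without replicate 1 of ΔC/fl cells with Wnt3a, Actg2 (1.83, limma adjusted p = 0.00487) and Myl9 (2.14, limma adjusted p = 0.0432) were called. The fibroblast list moved with the replicates there, with sums of 110 and 453 untreated and 79.1 and 273 treated, and its part was not tested. In dm/fl cells Tpm4 had 135 and 660.2 untreated and 619.8 and 737 treated (1.17, limma adjusted p = 0.205), and it was called without replicate 2 of the untreated group, whose replicates stood apart (2.31, limma adjusted p = 2.68e-06).

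Other genes of the contractile system were taken from a list of 44, of which 40 were tested. Actc1, Myh11, Tagln3 and Myocd did not pass the filter. With TGFβ the numbers of genes higher and lower were 2 and 1 in fl/fl, 1 and 0 in D164A/fl, 3 and 0 in D164A/-, 3 and 2 in ΔC/fl, 3 and 2 in ΔC/-, 1 and 4 in dm/fl and 9 and 0 in dm/- cells. Of all genes, 2.50% to 3.68% were called higher and 0.880% to 6.88% lower, so most of these counts among 40 genes are near the background. The median log2 changes of the list were 0.17, 0.13, 0.19, 0.56, 0.31, 0.24 and 0.68 in that order, against −0.03, 0.03, 0.00, 0.02, 0.00, −0.02 and 0.00 over all genes.

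By kind, 3 of 21 responses of the other actins were called up. Acta1, skeletal muscle actin, rose in fl/fl cells from 1.45 and 2.55 to 6.92 and 19.3 units (log2 change 2.11 ± 0.26 SE, limma adjusted p = 3.58e-07), and Actg1, cytoplasmic γ-actin, rose in ΔC/- (1.65) and dm/- cells (1.60). Of 63 responses of other smooth muscle genes, 7 were up and 4 down. Mylk, the kinase that phosphorylates myosin light chains, rose in D164A/fl (1.35) and D164A/- cells (1.41) and fell in ΔC/fl (−1.23) and dm/fl cells (−2.24). With edgeR neither of these D164A rises was called. The D164A/fl rise was also lost with a pseudocount of 0.1 and without the filter. Csrp1 rose in ΔC/fl cells from 255 and 218 to 1262 and 643 units (1.93 ± 0.39, limma adjusted p = 0.000589). Pdlim7 rose in dm/- cells (1.87).

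Paralogs of the members had 4 responses up and 1 down of 56. Myl12a rose in ΔC/fl cells and Flnc, the muscle filamin, fell in dm/fl cells (−2.67). Non-muscle myosin heavy chains had 1 up and 3 down of 21. Myh14 fell in fl/fl cells from 84.4 and 83.8 to 2.44 and 1.54 units (log2 change −4.85 ± 0.97 SE, limma adjusted p = 0.000666), and also in ΔC/fl (−4.01) and dm/fl cells (−4.17), and Myh10 rose in dm/fl cells (1.04). Crosslinkers and focal adhesion proteins had 4 up and 0 down of 56, with Actn1 in ΔC/- (1.26) and dm/- (1.51), Vcl in dm/- (2.03 ± 0.26, limma adjusted p = 1.45e-06) and Fhl2 in D164A/- cells (1.36). The Fhl2 rise was not called with edgeR. Srf, the factor that binds CArG boxes, and its coactivators Mrtfa and Mrtfb had log2 changes between −0.28 and 1.13 that were not called, and their coactivator Myocd did not exceed 0.0395 units.

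Over the 28 condition means of log2(value + 1), genes similar to the members were named by Pearson's r, as a description of conditions that share genotypes. For Acta2, genes with a high r included P2ry14 (r = 0.951) and Dusp27 (0.914), and the closest to Tagln were Kcnmb1 (0.987), 1700009N14Rik (0.984) and Apol10a (0.973). Actg2 was closest to Apol10a (0.978), Myl9 to Fstl1 (0.981) and Tpm2 to Klhl22 (0.927). For the abundant members the closest were R3hcc1 for Cnn2 (0.818), Praf2 for Tpm1 (0.837), Spcs3 for Tpm4 (0.864) and Dennd5a for Flna (0.877). Among the members themselves, r was highest between Actg2 and Tagln (0.963), Actg2 and Myl9 (0.942) and Acta2 and Tagln (0.904), and lowest between Tpm2 and Myl9 (−0.352).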

How the data were processed

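The deposited table holds a normalized expression signal for 20314 genes in 56 samples. Libraries were stranded and made from poly(A) RNA, and per the submitters' notes single-end reads were mapped to mm10 with STAR. The authors kept unique hits and counted reads that start in exons of RefSeq genes with QuasR. Every value (100% within 0.001 reads) was a whole number of reads divided by an effective library size, with scaling factors of 0.809 to 1.14, so reads could be recovered. Symbols came from RefSeq (20261 genes matched). Depth was 22.4 to 33.7 M reads, and the 10 most abundant genes took 3.36% to 9.60% of them.

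Values were tested as log2(value + 1) with limma 3.58.1 in R 4.3.3 (lmFit and eBayes with trend) on all 56 samples, with a coefficient per condition, 42 contrasts and 28 residual degrees of freedom, over 13754 genes with at least 1 unit in at least 2 samples, with Benjamini-Hochberg adjustment over all genes of a contrast. The steps were tested on simulated data. The authors name edgeR for their statistics. Here edgeR 4.0.16 (quasi-likelihood test on recovered reads) was an alternative, as were a pseudocount of 0.1, no filter, median of ratios (DESeq2 1.42.0), samples of an experiment alone, the replicate number as a block, a GC correction (lowess span 0.30, fitted on 9381 genes), no fold minimum and leaving out each sample. Tables and plots used Python 3.11.15, pandas 2.3.3, numpy 2.4.6 and matplotlib 3.10.9.

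The members and gene lists were chosen with earlier results of these data known. All 10 members are named. Of the wider list, genes are named where they had the highest or lowest change of their group in a genotype, were called in most genotypes of their group, or are transcription factors or coactivators. Genes similar to a member were taken from those with the highest Pearson's r.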

Additional observations from a re-analysis of the deposited data

Results flagged for a closer look

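The test of the difference between genotypes singled out 9 responses to TGFβ. In ΔC/fl against fl/fl cells the log2 difference was 4.09 for Acta2, 3.73 for Actg2 and 3.92 for Tagln. Actg2 and Tagln had passed the filter through the ΔC/fl samples, which favors such a difference. In dm/fl against fl/fl cells it was −1.84 for Tpm1. In ΔC/- against ΔC/fl cells it was −4.31 for Acta2, −3.92 for Actg2, −4.22 for Tagln and −2.49 for Myl9, and Actg2, Tagln and Myl9 had again passed the filter through the ΔC/fl samples. In dm/- against dm/fl cells it was 2.11 for Acta2. These are values on the log2(value + 1) scale by limma, and of the 9 edgeR called only Tagln in the ΔC and Acta2 in the dm comparison. Genotype and line cannot be told apart in any of them. The Tpm1 call in dm/fl and the Acta2 call in the dm comparison were each the only member call there. With 4.04% and 7.31% of all genes called, both are near the background.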

How the results depend on the processing

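Of the 12 TGFβ responses called, those of Acta2, Actg2, Tagln and Myl9 in ΔC/fl cells held with each sample left out, and the other 8, among them Acta2 and Myl9 in dm/- cells, did not. With a single sample left out, the members called up lay between 0 and 1 in fl/fl, 0 and 0 in D164A/fl, 0 and 0 in D164A/-, 4 and 6 in ΔC/fl, 0 and 2 in ΔC/-, 0 and 0 in dm/fl and 0 and 3 in dm/- cells, and those called down between 0 and 0 in each of the 7 genotypes. With Wnt3a they lay between 0 and 2 in ΔC/fl, 0 and 1 in dm/fl and 0 and 0 in the other lines. Differences from the fl/fl response lay between 0 and 0 in D164A/fl, D164A/- and ΔC/-, 3 and 4 in ΔC/fl, 0 and 1 in dm/fl and 0 and 2 in dm/- cells, and deleted against floxed between 0 and 0 for D164A, 3 and 4 for ΔC and 0 and 2 for dm. A group left with 1 sample is assumed to vary like the other groups, since limma pools the spread. The filter was not applied again with a sample left out, and Actg2, Tagln and Myl9 had passed it through the ΔC/fl samples. Of the calls that held in ΔC/fl cells, edgeR did not make that of Myl9 (2.59, edgeR adjusted p = 0.0863).

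With a pseudocount of 0.1, the members called up were 2 in fl/fl cells, those differing from the fl/fl response 1 in dm/- cells, those differing deleted against floxed 2 for ΔC and 2 for dm, and those differing in untreated cells of the Wnt3a experiment 5 in ΔC/fl and 2 in dm/fl cells. Of the wider list, 0 were up in D164A/fl, 1 in D164A/- and 5 in ΔC/fl cells, and 2 were down in fl/fl and 1 in ΔC/fl cells. This setting gives low values more weight. Without the filter, which adds genes to the adjustment, members differing deleted against floxed were 0 for dm, those differing in untreated cells 1 in D164A/- (TGFβ experiment) and 1 in D164A/fl (Wnt3a experiment), and of the wider list 0 were up in D164A/fl, 0 in dm/fl, and 1 down in ΔC/fl cells.

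With edgeR, members differing from the fl/fl response were 0 in ΔC/fl and 0 in dm/fl cells, those differing deleted against floxed 1 for ΔC, and those differing in untreated cells of the Wnt3a experiment 5 in ΔC/fl and 3 in dm/fl cells. The Acta2 difference between ΔC/- and ΔC/fl responses turned to 0.52 with edgeR from −4.31. Of the wider list, 0 were up in D164A/fl, 0 in D164A/- and 6 in ΔC/fl, 2 down in fl/fl and 1 in ΔC/fl cells, and 68 of all genes were down in D164A/fl cells. The cause was not tested.

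With each experiment fitted alone, 6 members were up in dm/- cells. Differences from the fl/fl response numbered 7 in ΔC/fl, 1 in ΔC/- and 3 in dm/- cells, and deleted against floxed 3 for dm. In untreated cells of the Wnt3a experiment 1 member differed in D164A/fl and 1 in dm/- cells. Of the wider list 7 were up in ΔC/fl, 8 in ΔC/-, 3 in dm/fl and 15 in dm/-, and 1 down in D164A/fl and 1 in dm/- cells. Of all genes 649 were up in D164A/fl, 596 in D164A/- and 619 in ΔC/-, and 368 were down in D164A/fl and 589 in dm/- cells. The fit of the TGFβ experiment holds none of the Wnt3a conditions with distant replicates, and that of the Wnt3a experiment holds both. The cause was not tested.

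With the replicate number as a block, 6 members were up in dm/- cells, and differences from the fl/fl response numbered 1 in D164A/fl, 6 in ΔC/fl, 1 in ΔC/- and 6 in dm/- cells (Acta2, Cnn2, Tpm1, Tpm2, Myl9 and Flna), and 3 deleted against floxed for dm. Of the wider list 7 were up in ΔC/fl, 6 in ΔC/-, 2 in dm/fl and 15 in dm/-, and 1 down in dm/- cells. Of all genes 621 were up in D164A/fl and 583 in D164A/-, and 289 were down in D164A/fl, 294 in D164A/-, 778 in ΔC/- and 638 in dm/- cells. The labels do not say that a number marks a shared day. Deviations of same-numbered samples correlated over 9513 genes by 0.708 in fl/fl, 0.625 in D164A/fl, 0.324 in D164A/-, 0.532 in ΔC/fl, −0.246 in ΔC/-, 0.573 in dm/fl and 0.467 in dm/- cells of the TGFβ experiment, and in that order by 0.544, 0.729, 0.917, 0.835, 0.943, −0.099 and 0.763 in the Wnt3a experiment. With the numbers of ΔC/- crossed in the block, a choice made after seeing the data, 1 member differed from the fl/fl response in ΔC/-, 6 of the wider list were up and 780 of all genes down in ΔC/- cells.

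With the GC trend removed, which left 13089 genes in the test, 6 members were up in dm/- and 1 was down in D164A/- cells. Differences from the fl/fl response numbered 1 in D164A/fl, 5 in ΔC/fl, 1 in ΔC/- and 3 in dm/- cells, and 2 deleted against floxed for dm. With the GC trend removed and the replicate block, 6 members were up in dm/- and 1 was down in D164A/- cells, differences from the fl/fl response numbered 1 in D164A/fl, 8 in ΔC/fl, 1 in ΔC/- and 5 in dm/- cells, and 3 deleted against floxed for dm. The cause was not tested. With the Wnt3a conditions of distant replicates left out, chosen after seeing the data, 6 of the wider list were up in ΔC/fl and 6 in ΔC/-, and 1 down in dm/- cells. With median of ratios 2 members differed between untreated sets in D164A/fl cells. Without a fold minimum, 2 of the wider list were up in D164A/fl and 7 in ΔC/fl cells.

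Duplicates give little precision, and depth limits what can be said of Cnn1 and, outside ΔC/fl cells, of Actg2 and Tagln, where many values rest on a few reads, as do those of Acta2 and Myl9 in untreated dm/- cells. Genotype and line cannot be told apart, and tumor and other cells cannot be separated in bulk RNA.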
